A study of Mus musculus with 2 samples.

Results

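The 8 mouse Smad genes, Smad1 to Smad7 and Smad9, were examined in whole embryos at 8.5 days post coitum (dpc) that carried both copies of chromosome 18 from the same parent. Members were all probe sets annotated to exactly 1 gene symbol that is a Smad, which gave 18 probe sets for the 8 genes, out of 18193 genes represented on the array. In matUPD18 embryos the whole chromosome pair was of maternal origin, and in patUPD18 embryos it was of paternal origin, so both groups carried a disomy and no embryos with 1 copy from each parent were analysed here. RNA of each genotype was hybridised to 1 Affymetrix mouse 430 array after kit amplification from total RNA. The sources used here do not give the number of embryos or the strain background. Smad2, Smad4 and Smad7 lie on chromosome 18, the other 5 members on other chromosomes.

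Smads carry signals of the TGF-beta family from the cell surface to the nucleus. Ligand-bound receptor pairs phosphorylate receptor-regulated Smads, which then join the common Smad, Smad4, and act on target genes together with other DNA-binding proteins. Smad2 and Smad3 serve mainly TGF-beta, activin and nodal, whereas Smad1, Smad5 and Smad9 (also called Smad8) serve mainly bone morphogenetic proteins (BMPs). Smad6 and Smad7 are inhibitors that are themselves induced by the pathway. In the early embryo this system acts in the primitive streak, the left-right axis, the heart, blood vessels and primordial germ cells.

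Smad complexes recognise short DNA elements, and the matches to these elements in the members' own promoters are shown because Smad6 and Smad7 are both members and targets of the pathway. RefSeq promoter windows of GRCm38.p6, from 250 bases before to 50 bases after a transcript start, were matched for 5 members, namely Smad1, Smad3, Smad5, Smad6 and Smad9, with 7 windows in all. Windows for Smad2, Smad4 and Smad7 were not analysed here. The palindrome GTCTAGAC, the classical Smad binding element, occurred in 1 of the 7, at position -4 of Smad6, counted from the transcript start, and in 70 of all 32851 windows (0.213%). The GC-rich element GGCGCC, bound by Smads of the BMP branch, occurred in 3 windows, which belong to Smad5 and Smad9, and in 11.9% of all windows. Both Smad5 windows overlap and hold the same match. CAGACA, searched on both strands as TGTCTG on the other, occurred in none of the 7 and in 21% of all windows; none of the 3 motifs contains another. In the following stretches, written 5′ to 3′ on the gene's strand, capitals mark the element.
Smad6, chr9:64022045-64022074, minus strand: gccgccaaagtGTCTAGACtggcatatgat
Smad5, chr13:56703022-56703051, plus strand: cccggcgagcgGGCGCCgagcgcttgtccc
Smad9, chr3:54755520-54755549, plus strand: cacggccgcctGGCGCCcttccagcgcggc
A match of letters describes the window and does not show that a Smad was bound there.

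The values were MAS5 signals, which are brightness in arbitrary units, and the 2 arrays had been scaled to a common trimmed mean. Measurable probe sets were those whose higher signal was at or above the 60th percentile of its array, 190.1 for matUPD18 and 184.9 for patUPD18. Signals under the 40th percentile, 84.2 and 82.5, were raised to it before a ratio was taken. Each gene was represented by its brightest probe set unless stated, log2 ratios set matUPD18 over patUPD18, and a fold divides the higher signal by the lower. With 1 array per genotype there was no test and no replicate error, and the number of arrays limits the precision of every value. As a yardstick, the pooled SD of log2 ratios between measurable probe sets within a gene was 0.44 over 10206 probe sets of 4003 genes, which does not include differences between embryos. Impact, the paternally expressed imprinted gene of chromosome 18, checked the labels: it gave 328.4 in matUPD18 and 2466 in patUPD18, 7.51-fold apart in the direction of the labels. All 18 bacterial and phage hybridisation control probe sets read lower on the matUPD18 array, at a median log2 ratio of -0.56 (lowest -0.88, highest -0.41). The directions given below hold for arrays brought to the same mean level, not for arrays matched on these controls.

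No Smad gene was 2-fold apart between the maternal and the paternal disomy. Of the 8 genes 7 were measurable, and 0 of these 7 reached 2-fold, against 4.48% of all 10483 measurable genes. None of the 7 reached 1.5-fold by its brightest probe set either, against 18.7% of all measurable genes. The shares of all measurable genes were not matched for signal. Members Smad1, Smad3, Smad4, Smad5 and Smad7, read higher in patUPD18, and Smad2 and Smad6 read higher in matUPD18. Of all measurable genes, 5652 read higher in patUPD18 and 4831 in matUPD18. The median log2 ratio over the 7 was -0.16, beside -0.04 over all measurable genes, whose quartiles were -0.31 and 0.26. The Smad ratios ran from -0.51 for Smad4 to 0.55 for Smad2, both on chromosome 18. Of the 18 probe sets 13 were measurable, and 1 of these, a Smad4 probe set, passed 1.5-fold, against 20.1% of all measurable probe sets.

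**Figure D1:**
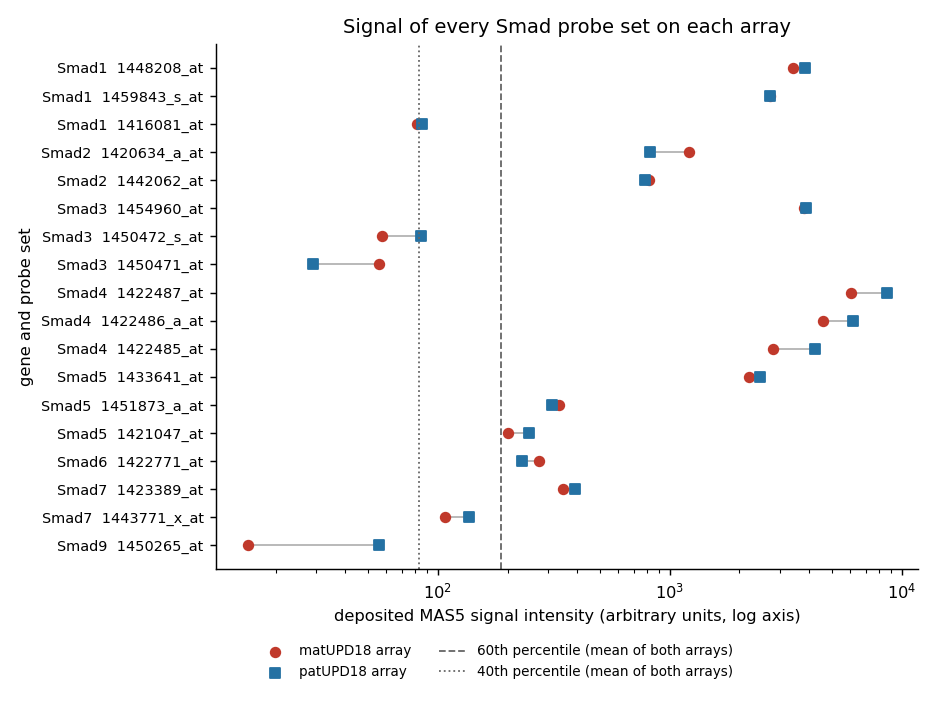
Deposited MAS5 signal (horizontal, log axis, arbitrary units) of each of the 18 Smad probe sets on the matUPD18 array (red circles) and the patUPD18 array (blue squares), joined by a grey line; dashed and dotted lines are the 60th and 40th percentiles, averaged over both arrays. The 3 Smad4 probe sets all lie higher on the patUPD18 array, and the Smad9 probe set lies under the 40th percentile on both.

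Smad4, the common partner of all receptor-regulated Smads, read lower in matUPD18 by all 3 of its probe sets. The brightest read 6068 in matUPD18 and 8613 in patUPD18, a 1.42-fold difference. The 2 others read 4566 and 6167 (1.35-fold) and 2785 and 4221 (1.52-fold). The log2 ratios had a mean of -0.51 with an SD of 0.08 between the 3 probe sets, which share the same pair of RNA samples and are not replicates of the genotype. All 3 thus lay on the same side and close together. A 1.3-fold threshold, chosen after the values were seen, sets this beside other genes. Among the 1436 genes with 3 or more measurable probe sets, 2.09% had every one at least 1.3-fold higher in patUPD18, as Smad4 did, and 2.65% had every one at least 1.3-fold higher in matUPD18.

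The Smad4 ratio has to be read beside a shift common to bright genes. The measurable genes were split by mean signal into 10 bins of equal size. Smad4 fell in the brightest bin, in which the median log2 ratio was -0.19 and the quartiles were -0.37 and 0.05. In the bin below, bin 9, the median was -0.04. Relative to the median of its own bin the Smad4 log2 ratio was -0.32, and it was -0.42 after quantile normalization and -0.38 after loess scaling. Its direction was the same under these scalings and under median centring (-0.55). Scaled to the hybridisation controls instead, the ratio was 0.06, since this scaling adds the same amount to every gene above the floor and moved the median of all genes from -0.04 to 0.54.

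Smad2, a receptor-regulated Smad required for nodal signalling in the gastrulating embryo, read higher in matUPD18, but its 2 probe sets differed in extent. The brighter read 1208 in matUPD18 and 825.7 in patUPD18, a 1.46-fold difference. The other read 818.5 and 786.2, a 1.04-fold difference. The mean log2 ratio of 0.30 had an SD of 0.35 between the probe sets, so the size of the Smad2 difference depended on the probe set read. The brighter is of the class with the suffix _a_at, which matches several transcripts of the same gene. Genes in the bin of like signal had quartiles of -0.27 and 0.26, and the brighter Smad2 probe set lay above them at 0.55.

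Smad3, the other receptor-regulated Smad of the TGF-beta and activin branch, was almost level. By its brightest probe set it gave 3800 in matUPD18 and 3870 in patUPD18, which is a log2 ratio of -0.03 that became 0.03 after loess scaling. The 2 other Smad3 probe sets were not measurable, with signals of 57.4 and 84.6 for the one and 56.0 and 28.9 for the other. Smad2 and Smad3 therefore did not share a ratio by their brightest probe sets, whereas the dimmer Smad2 probe set, at a log2 ratio of 0.06, lay near Smad3.

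In the BMP branch, Smad1 and Smad5 also lay near level. Smad1 read 3388 in matUPD18 and 3847 in patUPD18 by its brightest probe set, a 1.14-fold difference. Its second probe set, whose suffix _s_at marks probes that may match more than 1 gene or transcript, read 2702 and 2708. Both were high on both arrays and close to equal. The third, at 81.6 and 85.7, was not measurable.

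Smad5 had 3 measurable probe sets, which did not share a direction. The brightest read 2193 in matUPD18 and 2455 in patUPD18, a 1.12-fold difference. The others read 334.3 and 312.0, higher in matUPD18, and 201.0 and 247.6, higher in patUPD18 by 1.23-fold. The log2 ratios had a mean of -0.12 and an SD of 0.20, which is larger than the mean. Smad9, the third Smad of this branch, read 15.2 in matUPD18 and 55.9 in patUPD18 by its only probe set. Both signals lay under the 40th percentile, so no fold is given and Smad9 was not measurable in either genotype.

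The inhibitory Smads were measurable but dim, and they leaned in opposite directions. Smad6, which acts mainly on the BMP branch, read 273.0 in matUPD18 and 230.3 in patUPD18 by its only probe set, a 1.19-fold difference. Smad7, which inhibits both branches, read 347.2 and 391.1, a 1.13-fold difference in the other direction. A further Smad7 probe set, of the class _x_at whose probes may match several genes, read 108.0 and 137.0 and was not measurable. Genes in the bins of like signal to Smad6 and Smad7 had quartiles of -0.29 and 0.26, and of -0.30 and 0.31. The Smad6 and Smad7 log2 ratios of 0.25 and -0.17 lay between these quartiles.

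**Figure D2:**
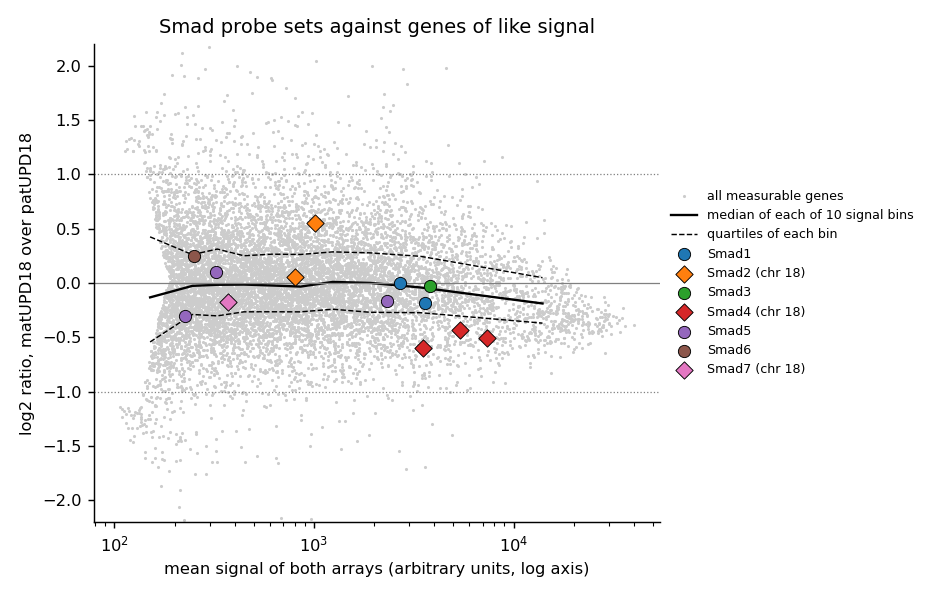
Log2 ratio of matUPD18 over patUPD18 (vertical) against the mean signal of both arrays (horizontal, log axis, arbitrary units) for all measurable genes (grey, values beyond the axis not drawn) and the 13 measurable Smad probe sets (coloured, diamonds for chromosome 18); the solid and dashed lines are the median and quartiles of each of 10 bins of genes by signal, and dotted lines mark 2-fold. Every Smad probe set lies inside 2-fold, and the Smad4 probe sets lie below the lower quartile line.

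Probe sets of Smad1 and of Smad3 differed widely in signal on the same array. The 3 Smad1 probe sets ran from 81.6 to 3388 on the matUPD18 array, and those of Smad3 from 56.0 to 3800. Signals of different probe sets depend on their probes, so the members were not ranked by level. Array controls showed a strong 3′ bias: the 3′ to 5′ signal ratio of Gapdh was 33.95 for matUPD18 and 36.4 for patUPD18, and that of beta-actin was 35.7 and 39.3. Such a bias lowers probe sets far from a transcript's 3′ end on both arrays. The positions of the Smad probe sets on their transcripts were not analysed here, and the part of the bias in the dim Smad1 and Smad3 probe sets was not tested.

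The members on chromosome 18, the chromosome whose parental origin differed, were then set beside the rest of that chromosome. The 3 genes had log2 ratios of -0.51 (Smad4), -0.17 (Smad7) and 0.55 (Smad2), with a median of -0.17, and did not share a direction. The 4 measurable members on other chromosomes ran from -0.18 for Smad1 to 0.25 for Smad6, with a median of -0.09. Over all 270 measurable genes of chromosome 18 the median was 0.04, with quartiles of -0.23 and 0.36, and 4.44% were at least 2-fold apart, against 0 of the 3 Smads. Ordered from the most patUPD18-high gene of the chromosome, Impact ranked 1st with a log2 ratio of -2.91, Smad4 ranked 20th and Smad7 81st. Smad2 ranked 41st from the matUPD18-high end.

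The 3 genes lie near each other, with 9 measurable genes between Smad4 and Smad7 and 2 between Smad7 and Smad2. Their neighbours, the 3 measurable genes on each side, numbered 14 without the Smads. Of these, 3 were at least 2-fold higher in matUPD18, against 4.07% of measurable genes of the chromosome. These 3 were 4930503L19Rik, Mex3c and Zbtb7c, and Mex3c and Zbtb7c each rested on a single measurable probe set. The comparison was not matched for signal. The nearest on either side of Smad4 were Mex3c, an RNA-binding ubiquitin ligase gene, and Elac1, a tRNA processing enzyme gene. Mex3c read 3626 in matUPD18 and 1480 in patUPD18, and Elac1 read 300.7 and 355.5. The Smad4 log2 ratio of -0.51 thus stood beside 1.29 for Mex3c and -0.24 for Elac1. Beyond them lay Mbd2, a methyl-CpG binding protein gene (0.33), 4930503L19Rik (1.95), the malic enzyme gene Me2 (-0.05) and the spindle gene Ska1 (0.54). The other measurable probe set of 4930503L19Rik had a log2 ratio of 0.50, so the size of its difference depended on the probe set.

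Smad7 lies between Dym, whose protein serves the Golgi, and Ctif, a translation initiation factor gene. Dym read 215.5 in matUPD18 and 419.1 in patUPD18, a 1.94-fold difference, while Ctif read 246.7 and 190.7. The single measurable Dym probe set is of the class _x_at, whose probes may match several genes. The 2 other genes on the Dym side, BC031181 and the beta-oxidation gene Acaa2, had log2 ratios of -0.69 and -0.19. Zbtb7c, a zinc finger gene between Ctif and Smad2, read 223.4 and 109.8, with a log2 ratio of 1.02. It fell in the dimmest of the signal bins, in which 16.3% of all genes were at least 2-fold apart. On the far side of Smad2 were Ier3ip1 (0.15), Hdhd2 (-0.16) and the SUMO ligase gene Pias2 (0.26). The other measurable probe set of Ier3ip1 and that of Hdhd2 had the opposite direction, and both others of Pias2 had the same direction. Ratios of neighbours were of both signs along the region. Smad7 followed 3 genes that also read higher in patUPD18, and Smad2 followed 2 that also read higher in matUPD18.

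**Figure D3:**
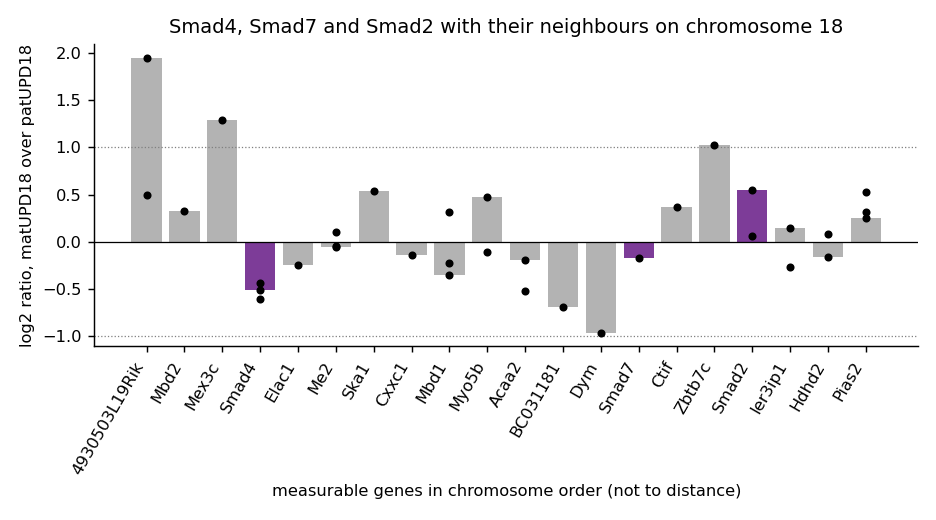
Log2 ratio of matUPD18 over patUPD18 (vertical) for measurable genes in chromosome 18 order from the third gene before Smad4 to the third gene after Smad2 (horizontal, not to distance); bars are the brightest probe set, purple for Smads, black points are all measurable probe sets, and dotted lines mark 2-fold. Smad4 and Smad7 lie below 0 and Smad2 above it, among neighbours of both signs.

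The rest of the pathway was described from 11 lists with 127 genes, of which 117 were on the array and 84 were measurable. Of these 84 genes, 7 (8.33%) were at least 2-fold apart, against 4.48% of all measurable genes. At least 2-fold higher in matUPD18 were 4 of them, against 2.70% of all measurable genes, and at least 2-fold higher in patUPD18 were 3, against 1.78%. The median log2 ratio was 0.06, with 48 genes leaning to matUPD18 and 36 to patUPD18, beside 4831 and 5652 of all measurable genes. The 7 genes came from different steps of the pathway and 5 of them had a single measurable probe set. Chrd, Tgfb3 and Zfyve16 fell in the dimmest of the signal bins, in which 16.3% of all genes were at least 2-fold apart. Lemd3, Rbl1, Rgmb and Tgfbi fell in brighter bins. The shares of 8.33% and 4.48% were not matched for signal, and the pathway lists were chosen with earlier results of these data known.

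Among ligands of the TGF-beta, activin and nodal branch, 4 of 11 on the array were measurable. Tgfb3 read 122.6 in matUPD18 and 276.9 in patUPD18, a 2.26-fold difference. Tgfb2 read 971.2 and 575.6, 1.69-fold higher in matUPD18, and a further probe set leaned the same way at a log2 ratio of 0.99. The 2 TGF-beta ligand genes thus leaned opposite ways. Of 14 BMP ligand genes 6 were measurable and all lay within 2-fold, from Bmp4 at -0.24 to Bmp2 at 0.47. Of 6 measurable extracellular antagonist genes 5 lay within 2-fold, and Chrd (chordin, which binds BMPs) read 20.9 and 198.2, at least 2.36-fold higher in patUPD18. Its level in patUPD18 was close to the measurable limit. Fst (follistatin, which binds activins) had the largest ratio in the other direction, 1.42-fold, while a further probe set leaned toward patUPD18 at a log2 ratio of -0.41.

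All measurable type I and type II receptor genes lay within 2-fold. Of the 5 measurable type I receptor genes, 4 read higher in matUPD18, with a list median of 0.35. Acvr1, a BMP type I receptor gene, read 1160 in matUPD18 and 781.4 in patUPD18, a 1.48-fold difference, and Acvr1b, an activin receptor gene, read 1078 and 1155. Of the 4 measurable type II genes, Acvr2a was 1.42-fold higher in matUPD18 and Tgfbr2 was 1.36-fold higher in patUPD18. Among 7 measurable co-receptor and decoy genes, Rgmb, a BMP co-receptor gene, read 657.3 and 165.1 by its brightest probe set, 3.98-fold higher in matUPD18. Its other measurable probe set read 271.1 and 286.3, so the difference was not shared. Bambi, a decoy receptor gene, was 1.38-fold higher in patUPD18.

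Of 21 measurable genes for Smad anchors, ubiquitin ligases, deubiquitinases and phosphatases, 19 lay within 2-fold and 2 were higher in matUPD18. Zfyve16, an endosomal Smad anchor gene, read 238.7 in matUPD18 and 89.4 in patUPD18, a 2.67-fold difference. Lemd3, whose product binds receptor-regulated Smads at the inner nuclear membrane, read 543.3 and 208.9, a 2.60-fold difference. Both rested on a single measurable probe set. Hgs, another endosomal adaptor gene, was 1.78-fold higher in patUPD18, opposite to Zfyve16. The phosphatase gene Ppm1a was level by its brightest probe set (-0.06), while 1 of its 4 others had a log2 ratio of 1.24. All 8 measurable co-repressor genes lay within 2-fold by their brightest probe sets. The other measurable probe set of Ski, at 0.01 by its brightest, had a log2 ratio of -1.31, with signals of 93.7 and 232.1. Tgif2, a homeodomain repressor gene, was furthest toward patUPD18 at 1.92-fold and Zeb2, a Smad-interacting zinc finger gene, furthest toward matUPD18 at 1.32-fold.

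Of 11 measurable DNA-binding partner and co-activator genes 10 lay within 2-fold. Rbl1, a retinoblastoma family member that partners Smad3, read 1369 in matUPD18 and 496.9 in patUPD18, a 2.75-fold difference by its 1 measurable probe set. Foxo1 was furthest in the other direction at 1.43-fold, with 1 of its 2 other measurable probe sets opposed. All 9 measurable BMP target genes lay within 2-fold. Their log2 ratios had a median of 0.16 and ran from Bambi at -0.47 to the cardiac T-box gene Tbx20 at 0.95. The classical BMP targets Id1, Id2 and Id3 had log2 ratios of 0.04, 0.27 and -0.21. Of 5 measurable TGF-beta and nodal target genes, 1 was 2-fold apart. Tgfbi, an extracellular matrix protein gene, read 1528 and 3118, 2.04-fold higher in patUPD18. Its 2 other measurable probe sets shared the direction with log2 ratios of -0.14 and -0.39. All 3 are of the classes _x_at or _s_at, whose probes may match several genes or transcripts. Col1a1, a collagen gene, was furthest the other way at 1.78-fold.

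**Figure D4:**
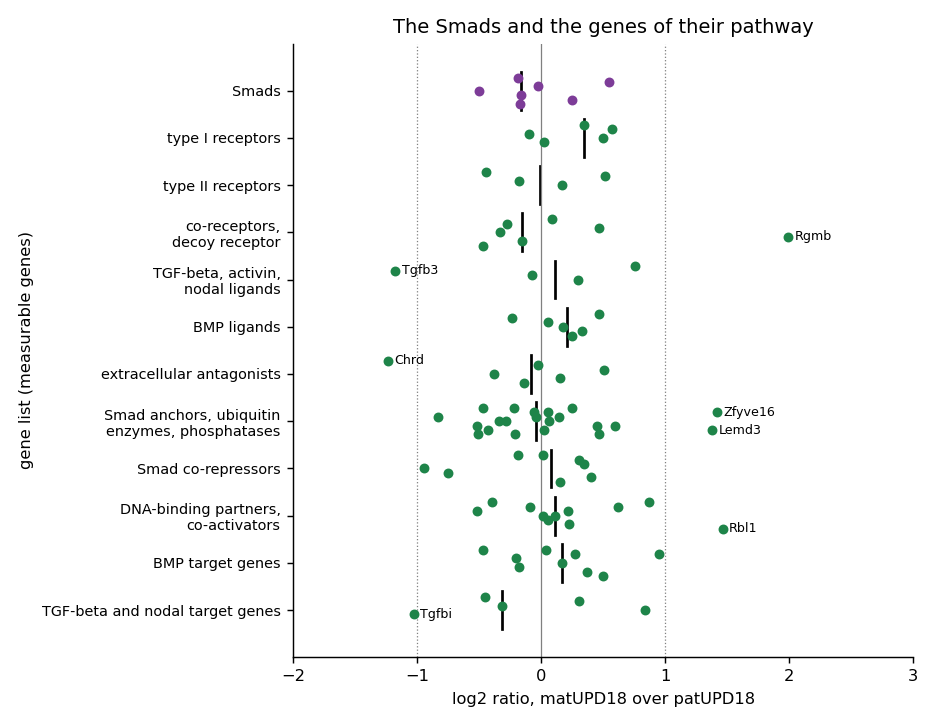
Log2 ratio of matUPD18 over patUPD18 (horizontal) for each measurable Smad (top row, purple) and each measurable gene of the 11 pathway lists (green); every point is a gene by its brightest probe set, black bars are list medians, dotted lines mark 2-fold, and the 7 genes past it are named. The Smads span -0.51 to 0.55, inside the 2-fold lines.

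Markers of some tissues differed between these whole-embryo samples. The marker lists were chosen with earlier results of these data known, so their shares describe these arrays and are no independent support. Of 16 measurable yolk sac and visceral endoderm markers 13 were at least 2-fold higher in matUPD18, against 2.70% of all measurable genes. The summed signal of the 16 was 37001 in matUPD18 and 5852 in patUPD18. For 7 of the 16 the patUPD18 signal lay under the floor, so their ratios are lower bounds. Among these, Apoa1 (at least 4.05) and Apom (at least 3.20) had the largest log2 ratios after flooring, by their brightest probe sets. The other measurable Apom probe set had a log2 ratio of 0.37, so the size of the Apom difference depended on the probe set. The 3 others of Apoa1 had at least 3.77. Apoa2 (-0.15) and Ihh (-0.08) leaned the other way. Of 9 primitive red cell markers 6 were at least 2-fold higher in patUPD18, against 1.78% of all measurable genes, led by Ermap (-1.65) and Slc4a1 (-1.40). The summed signals of the 9 were 46292 in matUPD18 and 71322 in patUPD18. The 6 measurable heart markers lay within 2-fold with a median of -0.02, from Actc1 (-0.51) and Myh7 (-0.33) to Myh6 (0.08) and Myl4 (0.31). The 6 measurable endothelial markers also did, with a median of 0.25, from Emcn (-0.70) and Eng (-0.27) to Kdr (0.65) and Flt1 (0.74). The 7 neural tube markers had a median of 0.13, from Fabp7 (-1.61) and Hes5 (-1.12) to Pax6 (0.51) and Otx2 (0.56). The 5 measurable somite and presomitic mesoderm markers had a median of -0.58. They ran from Hes7 (-1.43) and Msgn1 (-1.30 or beyond, its matUPD18 signal being under the floor) to Dll1 (0.996). Meox1 (-0.58) and Tcf15 (-0.43) lay between them, within 2-fold. Heart, neural tube, and somite and presomitic mesoderm markers, which define the embryo proper, were thus measurable on these arrays. Only Hand1 (0.50) of 4 trophoblast markers on the array, and Dcn (1.37) and Cryab (-0.40) of 4 decidual markers, were measurable. In bulk RNA, fewer cells of a type and less RNA per cell cannot be told apart. The part of these tissue differences in the Smad4 and Smad2 ratios was not tested.

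Quantile normalization and loess scaling, which can change the order of genes, left Smad4 with the lowest and Smad2 with the highest log2 ratio of the 7. Smad2 was at 0.51 and 0.53 under these. Median centring and scaling to the hybridisation controls add the same amount to the log2 ratio of every gene above the floor, so the order under them is fixed. Under scaling to the controls Smad2 reached 1.11, past 2-fold, in a setting where 16.4% of all genes were past 2-fold and their median was 0.54.

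**Figure D5:**
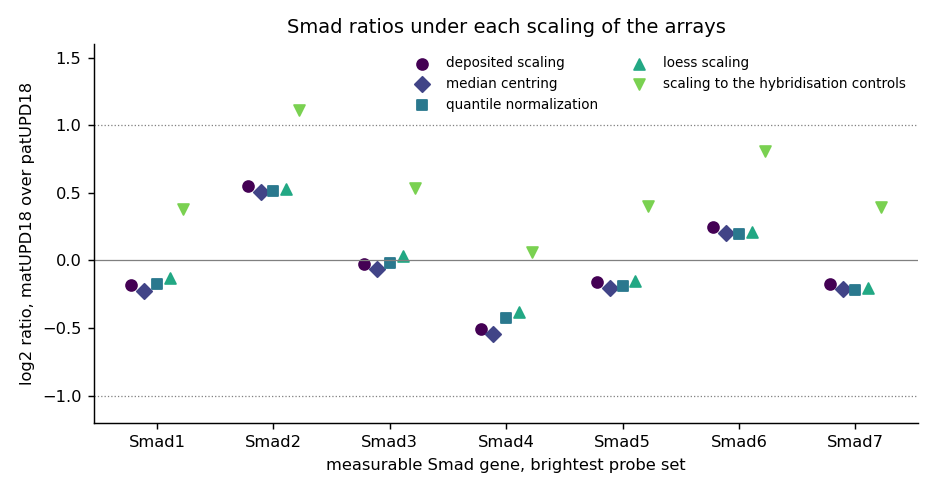
Log2 ratio of matUPD18 over patUPD18 (vertical) of the brightest probe set of each measurable Smad (horizontal) under 5 scalings of the arrays, marked by shape and colour; dotted lines mark 2-fold. Quantile and loess values lie close to the deposited ones, while scaling to the hybridisation controls lifts all 7 by the same amount, with Smad4 at 0.06.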

How the data were processed

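Per the labels, 1 matUPD18 and 1 patUPD18 array were hybridised with amplified, biotin-labelled RNA of whole embryos at 8.5 dpc. The deposited values are linear MAS5 signal intensities, produced by MAS5 and GCOS according to the submitters' processing notes, with versions not given in the sources used here. Their 2% trimmed mean is 500.003 for matUPD18 and 500.004 for patUPD18. Of 45101 probe sets, 34945 had exactly 1 gene symbol and were no control, 932 had several. Symbols were updated by Entrez identifier for 34741 through RefSeq genes of GRCm38.p6, used for names, chromosomes and gene order only. Promoter windows came from the same build. The 40th percentile floor, the 60th percentile filter, brightest probe sets and the 2-fold threshold gave 10483 measurable genes. Named were all members, list genes past 2-fold and the furthest in each direction, 3 neighbours on each side of the chromosome 18 Smads, Impact and the furthest markers. Further genes (Id1, Id2, Id3, Id4, Ppm1a, Ski, Hbb-bh1, Hbb-y, Meox1 and Tcf15, and those of the closing section) were chosen after their values were seen. Members and lists were chosen with earlier results of these data known. The procedure was run, without the floor, on simulated data with planted changes well past 2-fold. The simulated noise was lower than the spread between probe sets of a gene here. That run does not cover ratios as small as those of the Smads. Alternatives were other scalings, floors, filters, probe set rules and thresholds; scaling to the hybridisation controls and centring within signal bins were added after seeing the data. The tools were numpy 2.4.6, pandas 2.3.3, statsmodels 0.14.6 (loess), scipy 1.17.1 and matplotlib 3.10.9 under Python 3.11.15.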

Additional observations from a re-analysis of the deposited data

How the results depend on the processing

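No Smad gene passed 2-fold under any planned scaling, floor, filter or probe set rule, nor at a 1.5-fold or 3-fold threshold. Scaled to the hybridisation controls, 1 did (Smad2), the Smad median was 0.40 and the chromosome 18 Smad median was 0.39. Under this scaling 20 of 84 pathway genes passed 2-fold, against 16.4% of all genes. All 20 were higher in matUPD18, where 4 were higher in matUPD18 and 3 in patUPD18 before. With the filter at the 80th percentile, which left out Smad7, the chromosome 18 Smad median was 0.02. The count of 7 of 84 pathway genes fell to 4 of 84 under a floor at the 60th percentile, against 2.55% of all genes. With the filter at the 80th percentile it was 3 of 52, against 3.17%. It was 16 of 84 at 1.5-fold, against 18.7%, and 1 of 84 at 3-fold, against 0.725%. By the median over measurable probe sets it was 5 of 84, against 3.87%. Without _x_at and _s_at probe sets it was 6 of 82, against 4.65%. As the median over measurable probe sets, the Smad2 log2 ratio was 0.30. No paired analysis was possible because each genotype had 1 array. Low signal limits Smad9, which lay under the floor on both arrays, and Smad6, which lay near the measurable limit.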

Other observations

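Agreement between probe sets was examined for pathway genes after their values were seen. Of 16 pathway genes with 3 or more measurable probe sets, 1 had every one at least 1.3-fold higher in matUPD18 and 0 had every one at least 1.3-fold higher in patUPD18, against 2.65% and 2.09% of all such genes. The gene was Zeb2, which encodes a zinc finger repressor that binds receptor-regulated Smads and acts in neural crest and neural plate. Its 5 probe sets had log2 ratios of 0.40, 0.56, 0.77, 0.80 and 0.91, so the brightest gave the smallest ratio. Ctdsp2, a small phosphatase gene whose product acts on Smads, had all 3 lower in matUPD18, with log2 ratios of -0.34, -0.50 and -0.96. In other genes the brightest probe set stood against the rest. Usp9x, a deubiquitinase gene whose product acts on Smad4, had -0.43 by its brightest probe set and 0.25, 0.83 and 0.95 by the 3 others. Strap, a gene for a partner of the TGF-beta receptors and Smad7, had -0.51 by its brightest and 0.29 and 0.52 by the others.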
